A study of Homo sapiens with 21 samples.

Results

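The heat shock chaperones described here are 10 genes, HSPA1A, HSPA1B, HSPA6, HSPA8, HSPH1, HSP90AA1, HSPB1, DNAJB1, BAG3 and HSPA4L, taken by symbol from the 23368 genes listed for the series. Each symbol was listed once, and all 10 were among the 19694 genes whose value varied between libraries. They were measured by RNA-seq in hTERT-HPNE, a pancreatic cell line that was immortalized with telomerase and is not transformed, in 21 libraries that form 7 groups of 3 biological replicates. One group was untreated and harvested at 0 h, and the others were harvested 4, 8 or 24 h after 300 μM hydrogen peroxide (H2O2), an oxidant, or 400 ng/ml neocarzinostatin (NCS), a radiomimetic drug that breaks both strands of DNA. All groups were grown with EGF and puromycin, and treated cells also received fresh medium. Because untreated cells were taken at 0 h alone, an effect of treatment and an effect of time in fresh medium cannot be told apart in the comparisons with untreated cells, while H2O2 and NCS can be compared at matched times.

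Levels are given as rLog values, a log2 scale on which the authors had adjusted each gene's reads for library size. The transformation also shrinks differences, the more so the fewer reads a gene has. A difference of 1 is a doubling on this scale and understates the change in reads. The values are not divided by gene length, so levels were compared between groups and not between genes, and the sequencing depth is unknown. The 7 groups were fitted together with limma, and a difference was called at an adjusted p-value under 0.05, with Benjamini-Hochberg adjustment over the 19694 genes. In bulk RNA, fewer cells that express a gene and less of its RNA per cell cannot be told apart.

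Nestin and vimentin, which mark this line, were high in every library, with NES between 11.8 and 12.3 and VIM between 16.8 and 17.2. Of the duct keratins, KRT18 had a median of 11.7 and KRT7 of 6.93, whereas KRT19 lay between 0.58 and 0.73. The acinar genes PRSS1 and CELA3A and the endocrine gene INS were listed at 0 in all 21 libraries. One library stood apart, replicate 2 of H2O2 at 8 h, whose distance to the nearest library of another group was 20.6 against 27.6 and 27.7 for its replicates. Many, but not all, of the differences of named genes at that time are given with and without it. HSPA1A and HSPA1B are near-identical neighbours, and 67.1% of the 150-base stretches of the HSPA1A transcript also occurred in another gene, mostly HSPA1B. The share was 70% for HSPA1B, 15.2% for HSPA6 through the pseudogene HSPA7, and 0 for the other 7 genes, so the split of reads between HSPA1A and HSPA1B is uncertain.

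Heat shock proteins keep other proteins folded. When unfolded or oxidized proteins accumulate, the transcription factor HSF1 is set free from chaperones, forms trimers and binds heat shock elements, runs of inverted GAA units, in front of chaperone genes. HSP70 proteins then bind exposed stretches of a client in a cycle in which J-domain proteins such as DNAJB1 deliver the client, and nucleotide exchange factors such as BAG3 and the HSP110 proteins HSPH1 and HSPA4L release it. HSP90 proteins take over clients at a late stage of folding, and small heat shock proteins such as HSPB1 hold unfolded proteins. Some of these genes, such as HSPA6, are expressed mainly under stress, and others, such as HSPA8, are abundant at all times.

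The sequences in front of 6 of the genes are shown because they hold the letters of heat shock elements in different numbers and spacing. Each is the 250 bases before an annotated start, 5′ to 3′ on the strand of the gene, from RefSeq on GRCh38.p14. The windows are chr1:161524290-161524539 on the plus strand for HSPA6, chr6:31815293-31815542 and chr6:31827488-31827737 on the plus strand for HSPA1A and HSPA1B, and chr11:123062137-123062386, chr14:102087045-102087294 and chr19:14518398-14518647 on the minus strand for HSPA8, HSP90AA1 and DNAJB1, of which HSP90AA1 and DNAJB1 have further annotated starts. Capitals mark every match, on either strand, to GAANNTTCNNGAA, which has 3 units, or to GAANNTTC or TTCNNGAA, which have 2 units and are both contained in the first.
HSPA6: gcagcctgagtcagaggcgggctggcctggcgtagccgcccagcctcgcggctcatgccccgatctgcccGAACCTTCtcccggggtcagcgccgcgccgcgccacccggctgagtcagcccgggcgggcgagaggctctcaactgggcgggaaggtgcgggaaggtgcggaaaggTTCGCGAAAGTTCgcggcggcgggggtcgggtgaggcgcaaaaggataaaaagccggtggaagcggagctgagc
HSPA1A: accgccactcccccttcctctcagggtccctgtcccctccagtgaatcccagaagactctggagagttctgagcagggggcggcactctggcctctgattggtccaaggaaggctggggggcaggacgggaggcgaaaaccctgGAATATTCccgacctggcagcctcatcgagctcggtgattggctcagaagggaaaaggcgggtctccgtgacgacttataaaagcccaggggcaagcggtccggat
HSPA1B: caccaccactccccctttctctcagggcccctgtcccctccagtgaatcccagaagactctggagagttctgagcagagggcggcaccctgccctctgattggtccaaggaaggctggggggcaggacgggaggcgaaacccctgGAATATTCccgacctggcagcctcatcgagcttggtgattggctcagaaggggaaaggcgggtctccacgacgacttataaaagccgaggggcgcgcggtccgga
HSPA8: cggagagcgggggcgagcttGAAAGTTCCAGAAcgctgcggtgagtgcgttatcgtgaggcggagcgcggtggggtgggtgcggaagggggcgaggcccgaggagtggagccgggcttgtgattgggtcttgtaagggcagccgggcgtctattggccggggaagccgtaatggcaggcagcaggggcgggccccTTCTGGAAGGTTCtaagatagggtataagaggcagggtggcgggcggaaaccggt
HSP90AA1: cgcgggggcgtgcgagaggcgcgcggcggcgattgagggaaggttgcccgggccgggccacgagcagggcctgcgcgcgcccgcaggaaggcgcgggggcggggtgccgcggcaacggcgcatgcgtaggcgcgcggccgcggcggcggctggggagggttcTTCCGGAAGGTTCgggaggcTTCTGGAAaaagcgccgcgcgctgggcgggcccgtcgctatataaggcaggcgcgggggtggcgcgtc
DNAJB1: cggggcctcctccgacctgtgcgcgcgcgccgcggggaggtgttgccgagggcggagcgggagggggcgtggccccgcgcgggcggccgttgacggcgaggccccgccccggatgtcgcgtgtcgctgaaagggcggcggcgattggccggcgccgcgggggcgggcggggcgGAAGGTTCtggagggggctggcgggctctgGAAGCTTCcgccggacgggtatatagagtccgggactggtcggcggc

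HSPA6 held 1 match with 3 units, 74 to 62 bases before the start, and HSP90AA1 held 1 at 88 to 76 bases. HSPA8 held 2, at 230 to 218 and 55 to 43 bases. HSPA1A and HSPA1B each held a single match with 2 units, 106 to 99 and 105 to 98 bases before the start, and DNAJB1 held 2 of them. Over the 15 windows of the 10 genes, 3 of 10 genes held the 3 units, against 0.557% of the 27305 genes in the promoter table and 0.441% of its 35116 windows. The 2-unit sequence GAANNTTC was held by 7 of 10 genes and by 5.78% of windows, and TTCNNGAA by 4 of 10 genes and 6.62% of windows, and over all genes of the table the shares were 7.05% and 8.12%. HSPH1 and BAG3 held none of the 3 sequences in these windows. The genes with 3 units were not alike in the data, since HSPA6 rose and HSPA8 fell in H2O2 at 4 h and 8 h, as described next. A match is a run of letters and was not tested for binding.

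**Figure D1:**
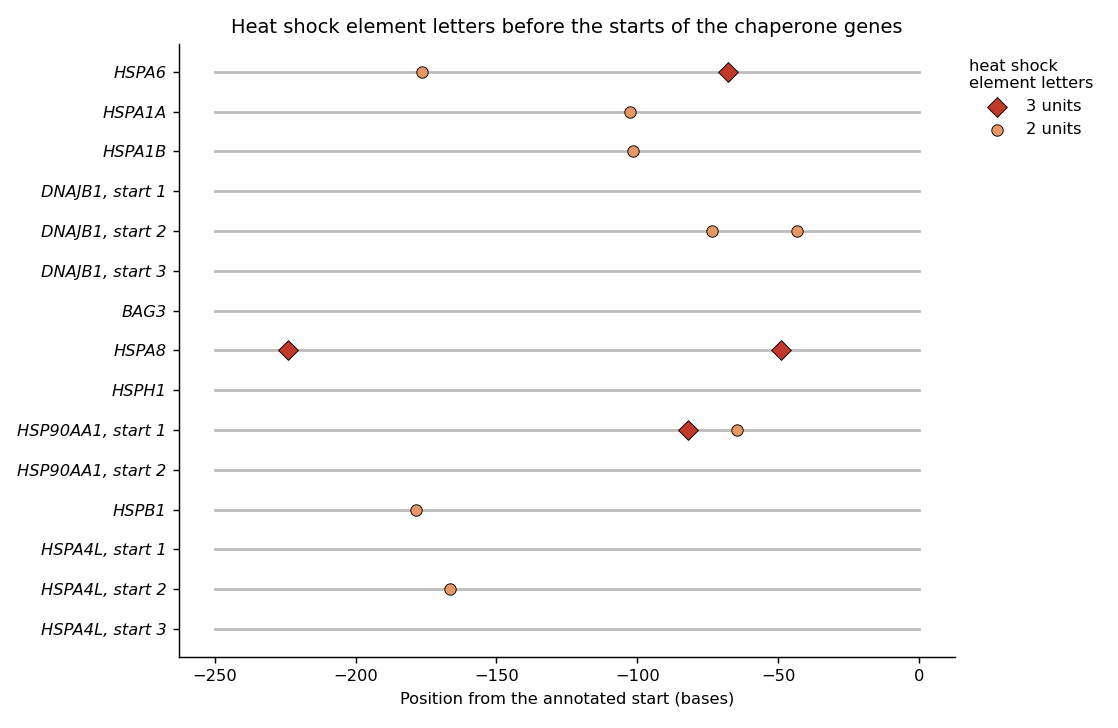
Positions of matches to heat shock element letters before 15 annotated starts of the 10 genes, in bases from the start. Diamonds mark matches with 3 units, which lie in HSPA6, HSPA8 and HSP90AA1, and circles mark matches with 2 units outside them.

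HSPA6 was the member with the widest response. It encodes an HSP70 that is expressed mainly under stress. The untreated libraries had rLog values of 5.25, 5.26 and 5.23. At 4 h of H2O2 the values were 8.02, 7.79 and 7.78, at 8 h they were 7.83, 7.11 and 7.71, and at 24 h they were 5.72, 5.49 and 5.77. All 6 libraries of the first 8 h of H2O2 lay above every other library of the series, and replicate 2 at 8 h was the lowest of them. With NCS the values were 5.81, 5.66 and 5.70 at 4 h, 5.49, 5.45 and 5.32 at 8 h, followed by 5.30, 5.27 and 5.46 at 24 h. The NCS libraries of 4 h and 8 h were above the untreated ones. At 24 h of NCS the lowest library, 5.267, was almost equal to the highest untreated one, 5.265. Against untreated cells HSPA6 rose by 2.62 at 4 h of H2O2 (SE 0.13, adjusted p = 2.08e-11 from limma), a ratio of 6.14, and this was the 5th largest rise of the 19694 genes. The rise at 8 h was 2.30 (adjusted p = 3.27e-10), also the 5th largest, and it was 2.52 without replicate 2 (adjusted p = 5.2e-13). At 24 h the difference was down to 0.41 (adjusted p = 0.0158). The call at 24 h was lost without H2O2 24 h replicate 1 (difference 0.39, adjusted p = 0.054) or replicate 3 (0.36, adjusted p = 0.0691). With NCS it rose by 0.48 at 4 h (adjusted p = 0.0152), a call that was lost without NCS 4 h replicate 1 (0.44, adjusted p = 0.0656), and the differences at 8 and 24 h were 0.17 and 0.09 (adjusted p = 0.432 and 0.686). In the order of group means, H2O2 at 4 h and 8 h came first with overlapping libraries, NCS at 4 h and H2O2 at 24 h followed and overlapped each other, then NCS at 8 h and 24 h with overlapping libraries, and untreated cells came last.

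The closest relative of HSPA6 is the pseudogene HSPA7, with a mean of 1.16 in untreated cells. HSPA7 was also called higher at 4 h and 8 h of H2O2, by 0.13 and 0.12 (0.14 at 8 h without replicate 2). Reads from their shared sequence were not told apart here.

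HSPA1A and HSPA1B, which encode the same main stress-inducible HSP70, rose with both treatments at 4 h. HSPA1A had values of 9.94, 10.04 and 9.88 in untreated cells and of 10.53, 10.45 and 10.32 at 4 h of H2O2. At 8 h of H2O2 it had 10.47, 10.28 and 10.38, and at 24 h it had 9.81, 9.82 and 9.69, below all untreated libraries. NCS gave 10.50, 10.25 and 10.36 at 4 h, 10.19, 10.10 and 10.08 at 8 h, followed by 9.96, 9.98 and 9.91 at 24 h. Thus the H2O2 libraries of 4 h and 8 h overlapped, and the NCS libraries lay between the 4 h and the untreated values by 8 h. The rise of HSPA1A was 0.48 at 4 h of H2O2 (SE 0.06, adjusted p = 7.4e-06). It was 0.42 both at 8 h of H2O2 and at 4 h of NCS (adjusted p = 3.58e-05 and 0.000132). At 8 h of NCS the difference was 0.17 (adjusted p = 0.0646), which passed at 0.0398 without untreated replicate 2, and at 0.0159 to 0.0379 with either other scaling, a mean of at least 5 or the replicate block. At 24 h of H2O2 it was lower by 0.17 (adjusted p = 0.0394), a call lost without untreated replicate 1 or 2 or H2O2 24 h replicate 1 or 3, when the difference lay between -0.19 and -0.13 and the adjusted p reached 0.175. It was also lost after quantile normalization (-0.13, adjusted p = 0.135) and with no mean-variance trend (adjusted p = 0.0562).

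HSPA1B had 9.34, 9.43 and 9.23 in untreated cells, 10.18, 10.04 and 9.92 at 4 h of H2O2, 10.19, 9.89 and 10.06 at 8 h, followed by 9.26, 9.14 and 9.22 at 24 h. With NCS it had 9.99, 9.85 and 9.84 at 4 h, 9.51, 9.40 and 9.33 at 8 h, followed by 9.25, 9.26 and 9.22 at 24 h. The 9 libraries of H2O2 at 4 h and 8 h and of NCS at 4 h were above all 12 others. Its rises were larger than those of HSPA1A in each of these groups, at 0.71 for H2O2 at both times (SE 0.07, adjusted p = 3.04e-07 and 4.24e-07) and 0.56 for NCS at 4 h (adjusted p = 2.39e-05), and these differences between the genes were not tested. The other differences were 0.08 for NCS at 8 h, -0.13 for H2O2 at 24 h and -0.09 for NCS at 24 h, and none of them passed (adjusted p = 0.557, 0.21 and 0.388).

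**Figure D2:**
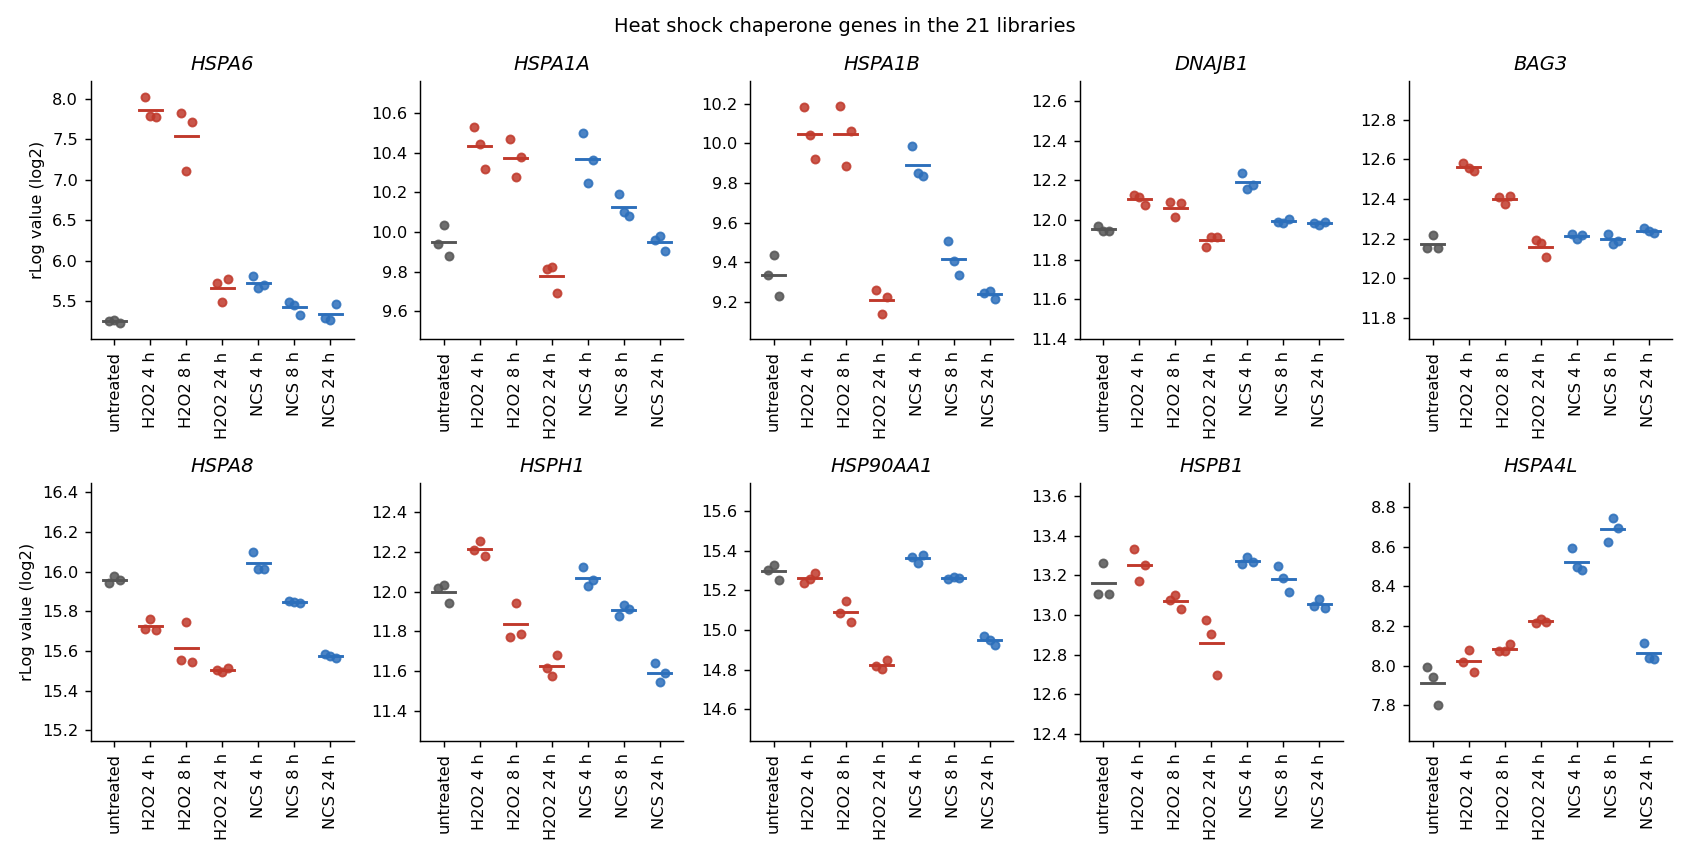
rLog values of the 10 heat shock chaperone genes in the 21 libraries, by group, with 1 point for each library and a bar at the mean of 3. Each panel has its own log2 axis, and the HSPA6 axis covers the widest span, from 5.23 in untreated cells to 8.02 at 4 h of H2O2.

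The co-chaperones of HSP70 moved by less. DNAJB1, the J-domain protein that hands clients to HSP70, lay between 11.94 and 11.97 in untreated cells, between 12.07 and 12.12 at 4 h of H2O2 and between 12.16 and 12.24 at 4 h of NCS. These ranges did not overlap. DNAJB1 rose by 0.24 at 4 h of NCS (SE 0.02, adjusted p = 8.47e-07), and with H2O2 its rises at 4 h and 8 h were 0.15 and 0.11 (adjusted p = 3.74e-05 and 0.00109). The differences at 8 h of NCS and at 24 h of both treatments lay between -0.06 and 0.04 (adjusted p of 0.0749 or more). The one at 8 h of NCS passed after quantile normalization (0.08, adjusted p = 0.0111), and the one at 24 h of H2O2 with library medians aligned (-0.07, adjusted p = 0.0355).

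BAG3, a nucleotide exchange factor that also guides clients to autophagy, rose with H2O2. Untreated libraries had 12.15, 12.22 and 12.15. With H2O2 it had 12.58, 12.56 and 12.54 at 4 h, 12.41, 12.37 and 12.41 at 8 h, followed by 12.19, 12.18 and 12.11 at 24 h. The libraries of 4 h and 8 h were above all others, and those of 24 h overlapped the untreated ones. NCS gave 12.22, 12.20 and 12.22 at 4 h, 12.22, 12.17 and 12.19 at 8 h, followed by 12.25, 12.24 and 12.23 at 24 h, which overlapped the untreated libraries at 4 h and 8 h and were above them at 24 h. BAG3 rose with H2O2 by 0.39 and 0.23 at 4 h and 8 h (SE 0.02, adjusted p = 2.23e-10 and 3.23e-07), and the difference at 24 h was -0.01 (adjusted p = 0.775). With NCS the differences were 0.04, 0.02 and 0.07, of which the last was called (adjusted p = 0.0265) and was lost without untreated replicate 1 or 3 or NCS 24 h replicate 1 or 2, with differences of 0.06 to 0.07 and an adjusted p of up to 0.107. It was also lost when only the groups compared were fitted (adjusted p = 0.0625). The difference at 8 h of NCS passed after quantile normalization (0.07, adjusted p = 0.0298).

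HSPA8, HSP90AA1 and HSPH1 were lower at 24 h with both treatments. HSPA8, the constitutive HSP70 of the cytosol, had 15.94, 15.98 and 15.96 in untreated cells. With H2O2 it had 15.71, 15.76 and 15.70 at 4 h, 15.56, 15.74 and 15.55 at 8 h, followed by 15.51, 15.50 and 15.51 at 24 h. Every H2O2 library was below every untreated one, and replicate 2 at 8 h was the one nearest to the 4 h values. NCS gave 16.10, 16.01 and 16.01 at 4 h, 15.85, 15.85 and 15.84 at 8 h, followed by 15.58, 15.58 and 15.57 at 24 h, which is above, just below and far below the untreated libraries. With H2O2 HSPA8 fell by 0.23, 0.34 and 0.45 at the 3 times (SE 0.04, adjusted p = 3.75e-05, 5.76e-07 and 6.95e-09), and the fall at 8 h was 0.41 without replicate 2. With NCS the difference at 4 h was 0.08 (adjusted p = 0.153), and at 24 h it fell by 0.38 (adjusted p = 8.29e-08). A fall of 0.11 at 8 h of NCS (adjusted p = 0.0332) was lost when any 1 of the 6 libraries compared was left out, with an adjusted p between 0.0545 and 0.0989. The call was kept in the 6 of 12 alternatives that left out no library, with an adjusted p as low as 0.000259.

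HSP90AA1, the stress-responsive cytosolic HSP90, lay between 15.25 and 15.33 in untreated cells, between 14.80 and 14.85 at 24 h of H2O2 and between 14.92 and 14.97 at 24 h of NCS. At 24 h it fell by 0.47 with H2O2 and by 0.35 with NCS (SE 0.02, adjusted p = 1.05e-11 and 9.94e-10). A fall of 0.20 was already called at 8 h of H2O2 (adjusted p = 1.92e-06). The differences at 4 h of either treatment and at 8 h of NCS were between -0.03 and 0.07 and did not pass. The one at 4 h of NCS passed without untreated replicate 2 (adjusted p = 0.0383) or among genes with a mean of at least 5 (adjusted p = 0.038), and the one at 8 h of NCS passed with library medians aligned (-0.05, adjusted p = 0.0335).

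HSPH1, an HSP110 that exchanges nucleotide on HSP70, changed direction with time in H2O2. Its values were 12.02, 12.04 and 11.94 in untreated cells, 12.21, 12.26 and 12.18 at 4 h, 11.77, 11.95 and 11.79 at 8 h, followed by 11.61, 11.58 and 11.68 at 24 h. The 4 h libraries lay above and the 24 h libraries below all untreated ones, and replicate 2 at 8 h overlapped them. HSPH1 rose by 0.22 at 4 h and fell by 0.16 and 0.38 later (SE 0.04, adjusted p = 0.000345, 0.00408 and 5.54e-07), and the fall at 8 h was 0.22 without replicate 2. The call at 8 h was lost when only H2O2 at 8 h and untreated cells were fitted (adjusted p = 0.0677). With NCS it fell by 0.41 at 24 h (adjusted p = 2.08e-07), after differences of 0.07 and -0.09 that did not pass. The one at 8 h of NCS passed with library medians aligned (-0.12, adjusted p = 0.015). HSPB1, the small heat shock protein HSP27, fell by 0.30 at 24 h of H2O2 (SE 0.06, adjusted p = 0.000313), where it lay between 12.70 and 12.98 against 13.11 to 13.26 in untreated cells, and its 5 other differences from untreated cells lay between -0.10 and 0.11 and did not pass.

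HSPA4L, a second HSP110, rose more with NCS than with H2O2 at 4 h and 8 h. It had 8.00, 7.94 and 7.80 in untreated cells. With NCS it had 8.59, 8.50 and 8.48 at 4 h, 8.62, 8.74 and 8.70 at 8 h, followed by 8.12, 8.04 and 8.03 at 24 h. With H2O2 it had 8.02, 8.08 and 7.97 at 4 h, 8.08, 8.07 and 8.11 at 8 h, followed by 8.21, 8.24 and 8.22 at 24 h. The 6 NCS libraries of the first 8 h were above all others, and the H2O2 libraries were highest at 24 h. HSPA4L rose with NCS by 0.61 and 0.77 at 4 h and 8 h (SE 0.05, adjusted p = 2.67e-08 and 7e-10), the 82nd and 50th largest rises of all genes tested. At 24 h of NCS it was higher by 0.15 (adjusted p = 0.015), a call lost without untreated replicate 3 (0.09, adjusted p = 0.115) or NCS 24 h replicate 1 (0.12). With H2O2 the differences were 0.11, 0.17 and 0.31 (adjusted p = 0.062, 0.00611 and 2e-05 at 4, 8 and 24 h), and the one at 4 h, which did not pass, did so without untreated replicate 1 or H2O2 4 h replicate 3, when the adjusted p was as low as 0.0185, and also after quantile normalization. The rise at 8 h of H2O2 and the one at 24 h of NCS were lost when only the groups compared were fitted (adjusted p = 0.0672 and 0.098).

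**Figure D3:**
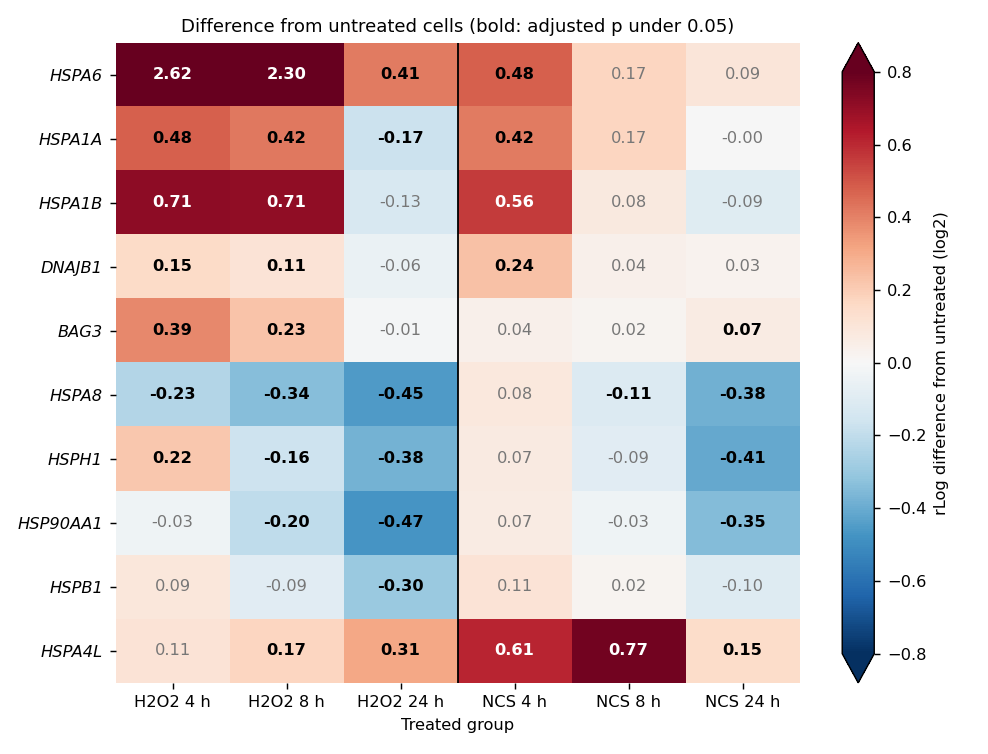
Differences of group means from untreated cells (log2, rLog scale) for the 10 genes, with color cut at 0.8 in either direction and bold numbers where the adjusted p from limma was under 0.05. HSPA6 has the largest values, 2.62 and 2.30 at 4 h and 8 h of H2O2, and the rows of HSPA8, HSPH1 and HSP90AA1 show falls at 24 h of both treatments.

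Counted over the 10 genes, 6 were higher and 1 lower at 4 h of H2O2, where 26.2% of all genes tested were called higher and 19.7% lower, 45.9% in all. At 8 h of H2O2, 6 were higher and 3 lower against 18.8% and 18.6% of all genes, and 37.4% in all. Without H2O2 8 h replicate 2 these 9 genes were called in the same directions, with differences of 0.47 for HSPA1A, 0.79 for HSPA1B, 0.13 for DNAJB1, 0.24 for BAG3, -0.23 for HSP90AA1 and 0.18 for HSPA4L. At 24 h of H2O2, 2 were higher and 5 lower against 20.2% and 19.9%, and 40% in all. With NCS at 4 h all 10 differences were above 0 and 5 passed, against 7.47% called higher, 9.72% lower and 17.2% in all. At 8 h of NCS, 1 was higher and 1 lower against 10.5% and 13.3%, and 23.9% in all. At 24 h of NCS, 2 were higher and 3 lower against 19.6% and 18.4%, and 38% in all. The count of 2 higher at 24 h of H2O2 became 1 without H2O2 24 h replicate 1 or 3, and the count of 2 higher at 24 h of NCS became 0 or 1 without any of the 4 libraries named for BAG3 and HSPA4L. At 8 h of NCS the 1 lower became 0 without any of the 6 libraries, and the 1 higher became 2 without untreated replicate 2. Genes with a mean of at least 8, as 9 of the 10 members have, were called more often, at 58.4%, 60.6% and 65.6% for H2O2 and 31.1%, 42.5% and 64.2% for NCS at 4, 8 and 24 h. At these times 7, 9 and 7 of the 10 members were called with H2O2 and 5, 2 and 5 with NCS. The count thus stood near that share at 4 h and 24 h of H2O2 and at 24 h of NCS. It was above that share at 8 h of H2O2 and 4 h of NCS, and below it at 8 h of NCS. These gaps were not tested. Of genes at that level, 22.2% and 27.4% were higher at 4 h and 8 h of H2O2. At 24 h, 35.4% of them were lower with H2O2 and 32.5% with NCS. The median difference of the members was 0.18, 0.14 and -0.15 for H2O2 and 0.17, 0.03 and -0.05 for NCS, while the median of all genes tested was within 0.004 of 0 in each. With a difference over 1 also required, HSPA6 alone passed, at 4 h and 8 h of H2O2, where 0.655% and 0.32% of all genes were called higher in this way.

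H2O2 and NCS were then compared directly at each time. The comparisons with untreated cells share the same 3 untreated libraries, whereas these do not use them. At 4 h, 3 members were higher with H2O2 and 4 were lower, against 26.3% and 18% of all genes, and 44.4% in all. Among genes with a mean of at least 8, 22.8% were higher and 31.9% lower, 54.8% in all. HSPA6, BAG3 and HSPH1 were higher with H2O2, by 2.14, 0.35 and 0.15 (adjusted p = 3.15e-10, 9.42e-10 and 0.00863). After quantile normalization HSPH1 differed by 0.10 and was lost (adjusted p = 0.0687). HSPA4L and HSPA8 were lower with H2O2, by 0.50 and 0.32 (adjusted p = 7.33e-08 and 1.2e-06), as were HSP90AA1 and DNAJB1, by 0.10 and 0.09 (adjusted p = 0.00214 and 0.00653). HSPA1A and HSPA1B, the main inducible pair, differed by 0.06 (SE 0.06, adjusted p = 0.469) and 0.16 (SE 0.07, adjusted p = 0.0983). The latter passed without H2O2 4 h replicate 3, at an adjusted p of 0.0314, and after quantile normalization, with a mean of at least 5 and with the replicate block, at 0.0422 to 0.0483.

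At 8 h, 5 members were higher with H2O2 and 3 were lower, against 18.7% and 15.4% of all genes, and 34.1% in all. Among genes with a mean of at least 8, 29.1% were higher and 26.4% lower, 55.5% in all. The pair now differed, HSPA1A by 0.25 (adjusted p = 0.00522) and HSPA1B by 0.63 (adjusted p = 2.77e-06). HSPA6 was higher by 2.13 (adjusted p = 1.71e-09), the 2nd largest difference of all genes in this direction, and BAG3 by 0.20 (adjusted p = 1.85e-06). HSPA4L was lower by 0.60 (adjusted p = 2.37e-08), HSPA8 by 0.23 and HSP90AA1 by 0.17 (adjusted p = 6.8e-05 and 1.92e-05). Without H2O2 8 h replicate 2 the same 8 genes were called, with differences of 2.35 for HSPA6, 0.71 for HSPA1B, 0.30 for HSPA1A, 0.22 for BAG3, 0.09 for DNAJB1, -0.59 for HSPA4L, -0.30 for HSPA8 and -0.20 for HSP90AA1. HSPH1 (-0.07 with all libraries) was then lower as well (-0.13, adjusted p = 0.0121). DNAJB1 was higher by 0.07 (adjusted p = 0.0341), which was lost without H2O2 8 h replicate 1 or 3 or NCS 8 h replicate 1 or 2 (adjusted p of up to 0.142). It was also lost after quantile normalization, at 0.01 (adjusted p = 0.694), and when only the groups compared were fitted (adjusted p = 0.124).

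At 24 h the treatments were closer, with 1 member higher and 4 lower with H2O2 against 11% and 10.9% of all genes, and 21.9% in all. Among genes with a mean of at least 8, 18.8% were higher and 20.3% lower, 39.1% in all. HSP90AA1 was lower by 0.13 (adjusted p = 0.000852), the one call at this time that held without each library in turn, though it was 0.03 in the other direction after quantile normalization. The calls for HSPB1 (-0.19), DNAJB1 (-0.09), BAG3 (-0.08) and HSPA4L (0.16) had adjusted p-values between 0.0136 and 0.0208 and were lost without 1 or more of H2O2 24 h replicates 1, 2 and 3 and NCS 24 h replicates 1, 2 and 3, with adjusted p-values of up to 0.139. Without H2O2 24 h replicate 3 HSPB1 differed by -0.11 and BAG3 by -0.05. All 4 were also lost after quantile normalization (adjusted p = 0.0582 to 0.14). HSPA6 differed by 0.32 (SE 0.13, adjusted p = 0.0953), and passed with library medians aligned (adjusted p = 0.0292) or a mean of at least 5 (0.0242). HSPA1A (-0.17, adjusted p = 0.0709) passed with aligned medians, a mean of at least 5, the replicate block or only the groups compared (0.00648 to 0.0339). HSPA8 (-0.07, adjusted p = 0.204) passed with aligned medians or only the groups compared (0.00538 and 0.00605).

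**Figure D4:**
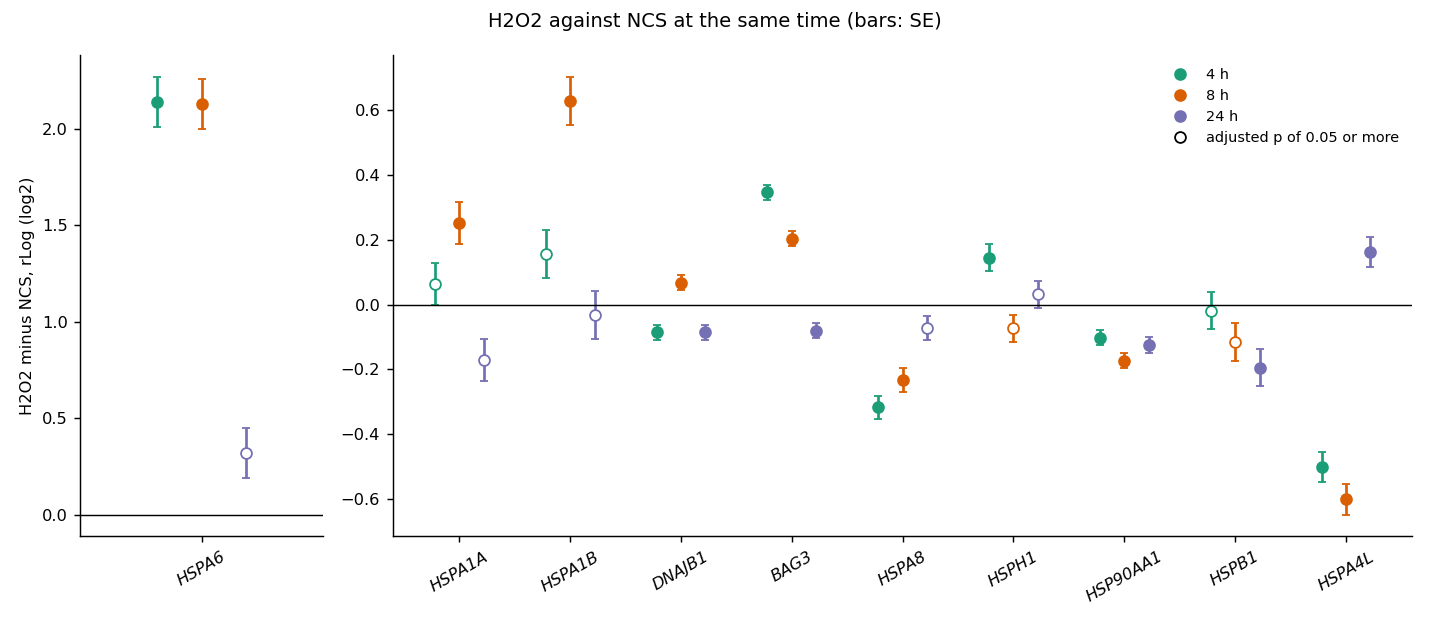
H2O2 minus NCS at 4, 8 and 24 h for the 10 genes (log2, rLog scale; bars are the SE from limma; open points have an adjusted p of 0.05 or more). HSPA6 has an axis of its own, with 2.14 and 2.13 at 4 h and 8 h, and HSPA4L lies lowest at those times.

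Between neighbouring times, the falls of HSPA1A and HSPA1B were called from 4 h to 8 h of NCS and from 8 h to 24 h of H2O2. Among genes with a mean of at least 8, 25.3% were called from 4 h to 8 h of NCS and 59.3% over these hours of H2O2. From 4 h to 8 h of NCS, 1 member rose and 6 fell, where 6.16% and 7.5% of all genes did so, 13.7% in all, and HSPA1B fell by 0.48 (adjusted p = 0.000203) and DNAJB1 by 0.20 (adjusted p = 1.57e-05). Over the same hours of H2O2, 5 members fell, where 18% of all genes rose and 27.7% fell, 45.7% in all, and HSPA1B differed by -0.003 (adjusted p = 0.976; 0.08 without H2O2 8 h replicate 2) while HSPH1 fell by 0.38 (adjusted p = 7.11e-07) and BAG3 by 0.16 (adjusted p = 1.53e-05). From 8 h to 24 h of H2O2 all 10 members were called, 1 higher and 9 lower, against 19.4% and 23.2% of all genes, and 42.6% in all. Among genes with a mean of at least 8, 30% were higher and 37% lower, 67% in all. HSPA6 fell by 1.89 (adjusted p = 1.49e-09), the 2nd largest fall of all genes. HSPA1B, HSPA1A and BAG3 fell by 0.84, 0.60 and 0.24 (adjusted p = 3.7e-08, 4.87e-07 and 1.09e-07). Without H2O2 8 h replicate 2 the differences were -2.11 for HSPA6, -0.92 for HSPA1B, -0.65 for HSPA1A and -0.25 for BAG3. The member that rose, HSPA4L (0.14, adjusted p = 0.0217), was lost without H2O2 8 h replicate 1 or 2 or H2O2 24 h replicate 2 (adjusted p of up to 0.0614), and HSPA8 was lost without H2O2 8 h replicate 2 (-0.05, adjusted p = 0.11) or H2O2 24 h replicate 2 and differed by 0.006 after quantile normalization. HSPB1 was lost without H2O2 24 h replicate 3 (-0.13, adjusted p = 0.0514).

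From 8 h to 24 h of NCS, 5 members fell, where 14.9% of all genes rose and 15% fell, 29.9% in all. Among genes with a mean of at least 8, 26% rose and 27.1% fell, 53.1% in all, so the count of 5 of 10 stood near that share. HSPA4L, HSPH1, HSP90AA1 and HSPA8 fell by 0.62, 0.32, 0.31 and 0.27 (adjusted p = 5.81e-09, 9.21e-06, 8.91e-09 and 1.17e-05). The last call, HSPA1A (-0.18, adjusted p = 0.0487), was lost when any of the 6 libraries was left out. The rise from 4 h to 8 h of NCS was that of HSPA4L (0.16, adjusted p = 0.0251) and was lost without replicate 2 or 3 at either time (adjusted p of up to 0.119). Over these hours of NCS, HSPA1A (-0.24) was lost without NCS 4 h replicate 1 or NCS 8 h replicate 2 or 3, and HSPH1 (-0.16) without NCS 4 h or 8 h replicate 1 (adjusted p of up to 0.104). From 4 h to 8 h of H2O2, HSPA8 (-0.11) was lost without H2O2 4 h replicate 2 or H2O2 8 h replicate 1 or 3 (-0.07, adjusted p = 0.128), and HSPB1 (-0.18) was lost without H2O2 4 h replicate 1 or H2O2 8 h replicate 3. After quantile normalization HSPA8 differed by -0.005 over these hours (adjusted p = 0.944), and its call was also lost when only these groups were fitted (adjusted p = 0.201). HSPA6 over these hours differed by -0.32 (adjusted p = 0.0559), and by -0.46 and -0.40 without H2O2 8 h replicate 1 or 3, when it passed, and by -0.10 without replicate 2.

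Whether the difference between the treatments itself changed from 4 h to 24 h was tested as an interaction, which called 4 of the 10 members, 2 in each direction, against 16.6% of all genes higher and 22.7% lower, 39.4% in all. Among genes with a mean of at least 8, 29.1% were higher and 23.2% lower, 52.3% in all. The difference between the treatments fell for HSPA6 and BAG3, by 1.82 (SE 0.18) and 0.43 (SE 0.03; adjusted p = 4.46e-07 and 1.43e-08), and rose for HSPA4L and HSPA8, by 0.66 (SE 0.07) and 0.25 (SE 0.05; adjusted p = 3.34e-07 and 0.000967). All 4 were called without each library in turn. For HSPA1A the change was -0.23 (SE 0.09, adjusted p = 0.0512), which passed without H2O2 4 h replicate 3 or NCS 4 h replicate 1, down to an adjusted p of 0.0134. It also passed with either other scaling, a mean of at least 5 or the replicate block (adjusted p = 0.00986 to 0.0335). HSPB1 (-0.18) passed without H2O2 24 h replicate 1 (-0.23, adjusted p = 0.0273), with aligned medians (0.0135) or with a mean of at least 5 (0.035). HSPA1B and HSPH1 passed with aligned medians alone (adjusted p = 0.0483 and 0.031).

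Across the 7 group means the members fell into loose groups, given here as a description, since the points share libraries and members were known beforehand. HSPA1A and HSPA1B had a Pearson correlation of 0.963, and HSPA1A and DNAJB1 one of 0.902. Whether reads shared by HSPA1A and HSPA1B entered the first is unknown. HSPA6 went most closely with BAG3 (0.942) and was at -0.263 with HSPA8. HSP90AA1 had 0.942 with HSPB1, 0.914 with HSPA8 and 0.881 with HSPH1. HSPA4L had no correlation above 0.345 with any other member. The genes most like HSPA1A by the same measure, among 2621 genes outside the members with a mean of at least 7 and a range of group means of at least 0.5, were CCRN4L (0.957), WDR43 (0.946) and PTGS2 (0.943). Most like HSPA8 were PCDH7 (0.973), GPD2 (0.973) and TELO2 (0.965).

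The wider chaperone network was described through 8 lists of 64 genes, all of which varied and were tested. Of the 64, 53 had a mean of at least 8. At 4 h of H2O2, 23 were higher and 6 lower, where 26.2% and 19.7% of all genes were. At 8 h the counts were 13 and 10 against 18.8% and 18.6%, and at 24 h they were 9 and 29 against 20.2% and 19.9%. With NCS, 7 were higher and 4 lower at 4 h against 7.47% and 9.72%, and 8 and 14 at 8 h against 10.5% and 13.3%. At 24 h of NCS the counts were 12 and 29 against 19.6% and 18.4%. Among all genes with a mean of at least 8, 35.4% were lower at 24 h of H2O2 and 32.5% at 24 h of NCS. The excess of lower over higher genes at 24 h was found with every scaling tried, while at 8 h of NCS it became 12 higher and 10 lower after quantile normalization. The CCT chaperonin, a ring that folds actin and tubulin, is one of the lists. At 24 h 7 of its 8 subunits were lower with H2O2 (median -0.222) and 7 with NCS (median -0.204), and CCT3 (-0.03 and -0.02) was the one that did not pass in either. The shares of all genes called lower there were 19.9% and 18.4%, and 35.4% and 32.5% among those with a mean of at least 8, as all 8 subunits have. After quantile normalization 6 were lower with H2O2. At 4 h of H2O2, TCP1, CCT2, CCT4, CCT5 and CCT8 were higher, by 0.07 to 0.10, 5 of 8 against 26.2% of all genes, of which 2 passed after quantile normalization.

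Among the HSP90 machinery, 7 of 14 genes were lower and 2 higher at 24 h of H2O2, and 7 were lower and 4 higher at 24 h of NCS. All 14 have a mean of at least 8, and of such genes 35.4% and 32.5% were lower and 30.1% and 31.7% higher in these groups. The medians of the list were -0.0918 and -0.082. CACYBP, a co-chaperone that binds SUGT1 and calcyclin, had the largest change there, a fall of 0.62 with H2O2 and of 0.58 with NCS at 24 h (adjusted p = 6.57e-13 and 1.62e-12). HSP90AB1, the constitutive sister gene of HSP90AA1, was named after its values were seen. HSP90AB1 fell by 0.25 and 0.22 at 24 h of H2O2 and NCS, and at 4 h of H2O2 its difference of 0.165 passed, where that of HSP90AA1 was -0.03. Its promoter window held the 3 units, as did those of DNAJB6, CHORDC1 and HSPD1, 4 of the 51 genes of the lists found in the promoter table.

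HSPB8, the small heat shock protein that works with BAG3, rose as BAG3 did with H2O2 but also with NCS. Its untreated values were 12.23, 12.25 and 12.23, against 12.87, 12.91 and 12.91 at 4 h of H2O2 and 12.61, 12.52 and 12.54 at 4 h of NCS. None of these ranges overlapped. It rose by 0.66 and 0.40 at 4 h and 8 h of H2O2 (adjusted p = 1.89e-12 and 2.73e-09) and by 0.32, 0.24 and 0.19 at 4, 8 and 24 h of NCS (adjusted p = 1.47e-07, 2.68e-06 and 1.38e-05). At 4 h it was higher with H2O2 than with NCS by 0.34 (adjusted p = 1.08e-08). In its list of small heat shock proteins, 3 of 8 were higher at 4 h of H2O2 and 2 of 8 at 4 h of NCS, where 26.2% and 7.47% of all genes were, and the medians were 0.0345 and -0.00397. HSPB8 at 8 h of H2O2 was higher by 0.435 without replicate 2.

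GRPEL2, a nucleotide exchange factor of the mitochondrial HSP70, was the list gene with the largest rise. It had 8.94, 8.81 and 8.75 in untreated cells, 9.64, 9.63 and 9.68 at 4 h of H2O2, and 9.71, 9.45 and 9.73 at 8 h. It rose by 0.82 and 0.80 at these times and by 0.34 at 24 h (adjusted p = 2.26e-09, 5.93e-09 and 8.02e-05), and it was higher with H2O2 than with NCS by 0.74, 0.58 and 0.28 at 4, 8 and 24 h. Without replicate 2 the values at 8 h were 0.89 against untreated cells and 0.67 against NCS. Of the 8 mitochondrial chaperones, 4 were higher and 1 lower at 4 h and at 8 h of H2O2 (medians 0.0898 and 0.115), against 26.2% and 18.8% of all genes higher and 19.7% and 18.6% lower. At 24 h 4 were lower with either treatment (medians -0.147 and -0.105) and 3 were higher with H2O2. Of all genes, 19.9% and 18.4% were lower there with H2O2 and NCS, and 20.2% were higher with H2O2. All 8 have a mean of at least 8, a level at which 35.4% and 32.5% of genes were lower and 30.1% were higher with H2O2.

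Of the 8 other HSP70 and HSP110 genes, 4 were lower at 24 h of H2O2 and 5 at 24 h of NCS (medians -0.117 and -0.106), against 19.9% and 18.4% of all genes. In this list 4 genes have a mean of at least 8, a level at which 35.4% and 32.5% of all genes were lower. HSPA2, one of the 8, fell by 0.59 and 0.57 at 24 h of H2O2 and NCS (adjusted p = 1.75e-08 and 3.31e-08), after a rise of 0.25 at 4 h of NCS. Of the 8 other J-domain proteins, 4 were higher and 2 lower at 4 h of H2O2 (median 0.0693), against 26.2% and 19.7%. DNAJB5 fell at 4, 8 and 24 h of H2O2, by 0.44, 0.63 and 0.37 (0.75 at 8 h without replicate 2, which had 7.65 against 7.28 and 7.29), and at 4 and 24 h of NCS. Of the other BAG and nucleotide exchange factors, 1 of 6 was higher and 2 lower at 24 h of H2O2, and 2 were lower at 24 h of NCS (medians -0.0238 and -0.0638), against 20.2% of all genes higher and 19.9% lower with H2O2 and 18.4% lower with NCS. All 6 have a mean of at least 8, and of such genes 35.4% and 32.5% were lower with H2O2 and NCS, so these counts stood near that share.

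A list of 4 genes held the heat shock factors HSF1, HSF2 and HSF4 and the binding protein HSBP1, with 2 higher and 1 lower at 24 h of either treatment (medians 0.146 and 0.0793), against shares of all genes higher and lower of 20.2% and 19.9% with H2O2 and 19.6% and 18.4% with NCS. The 3 factors described here were chosen after their values were seen. HSF1, the factor of the heat shock response, had called differences of 0.155 and 0.246 at 8 h and 24 h of H2O2, and 0.192 at 8 h without replicate 2. Its difference at 4 h of H2O2 was 0.05 and did not pass. These are RNA levels, and the state of the HSF1 protein was not measured. HSF2 was lower in 5 of the 6 treated groups, by 0.22 to 0.28. HSF4 was higher at 24 h by 0.53 with H2O2 and 0.44 with NCS.

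**Figure D5:**
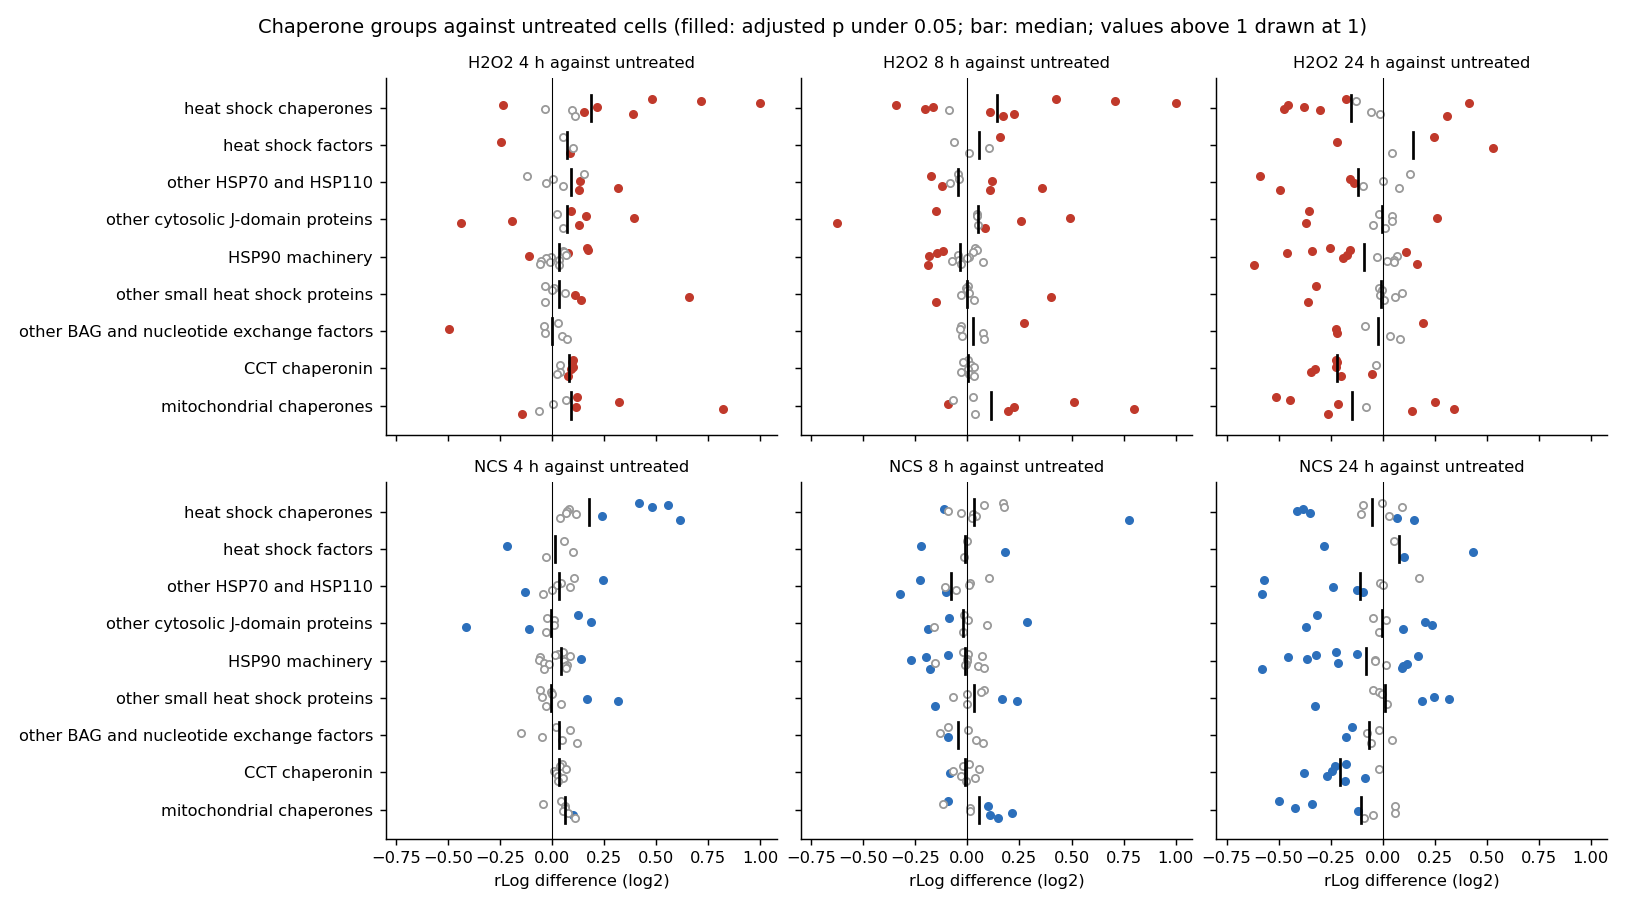
Differences from untreated cells (log2, rLog scale) of the 10 heat shock chaperones and of 8 further chaperone lists in each treated group, with 1 point for each gene, filled where the adjusted p was under 0.05, and a bar at the median. The CCT chaperonin lies below 0 at 24 h of both treatments, and HSPA6 at 4 h and 8 h of H2O2 is drawn at 1.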

How the data were processed

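RNA-seq was made by the submitters with a TruSeq stranded mRNA kit from hTERT-HPNE cells in 7 groups of 3. Per the labels and methods, the authors used HISAT2 with the hg19 genome, HTSeq for counting and DESeq2 for the transformation (tools and build also in the submitters' processing notes). The deposited values are the authors' rLog values, on a log2 scale and normalized for library size. Tool versions and the annotation are not given in the sources used here, nor is the handling of reads that fit more than one gene. No counts were used, so depth is unknown and no interval or floor was computed.

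The 3674 genes with one value in all libraries were left out. The other 19694 were fitted with limma 3.58.1 in R 4.3.3 (7 groups, mean-variance trend, Benjamini-Hochberg within each of 14 comparisons), in place of a count test. The fit was tested on simulated data. Dates stood in place of 28 gene symbols. Promoters came from RefSeq (GRCh38.p14), transcripts from GENCODE 29 on the same genome, and figures from matplotlib 3.10.9 in Python 3.11.15.

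The members and lists were chosen with earlier results of these data known. Named were all 10 members, up to 3 genes of each list with a called difference of at least 0.58 from untreated cells, the 3 genes most like HSPA1A and HSPA8, and cell markers. Chosen outside this rule, after their values were seen, were HSF1, HSF2, HSF4, HSBP1, HSP90AB1, HSPA7, TCP1, the CCT genes and the list genes with a promoter match. The labels do not say whether replicate numbers pair the libraries, and the main fit did not pair them. The deviations of same-numbered libraries from their group means correlated at 0.0274 on average, against -0.0137 for different numbers. The correlation was above 0.1 in 8 of 39 pairs and in all 3 pairs of none of the comparisons. With groups of 3 this cannot show that the libraries were unpaired. Alternatives were median alignment, quantile normalization, a mean of at least 5, the replicate block, no trend, only the groups compared, a difference over 1 and each library left out.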

Additional observations from a re-analysis of the deposited data

Results flagged for a closer look

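A test of the interaction between treatment and time found that the difference between H2O2 and NCS changed from 4 h to 24 h for 4 of the 10 genes. For HSPA6 the difference was 2.14 at 4 h and 0.32 at 24 h, a change of -1.82 (adjusted p = 4.46e-07 from limma). For BAG3 it was 0.35 and -0.08, a change of -0.43 (adjusted p = 1.43e-08). For HSPA8 it was -0.32 and -0.07, a change of 0.25 (adjusted p = 0.000967). For HSPA4L it was -0.50 and 0.16, a change of 0.66 (adjusted p = 3.34e-07). The same test called 39.4% of all genes and 52.3% of those with a mean of at least 8.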

How the results depend on the processing

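Of the 140 differences given for the 10 genes, 86 were called, and of the 1056 values that the alternatives gave for these 86, 971 kept direction and call, 83 lost the call and 2 changed sign. Of the differences not called, 54 alternative values passed and 25 changed sign. The causes were not tested. Beside the losses given with the results, a fit of only the groups compared ended the calls of HSPB1 and BAG3 for H2O2 against NCS at 24 h (adjusted p = 0.112 and 0.0704), of HSPA8 and HSPB1 from 8 h to 24 h of H2O2 (0.178 and 0.0671) and of HSPA1A and HSPA4L from 4 h to 8 h of NCS (0.0559 and 0.064). Quantile normalization ended those of HSPB1 from 8 h to 24 h of H2O2 (0.0734), HSP90AA1 from 4 h to 8 h of NCS (0.235) and HSPA1A from 8 h to 24 h of NCS (0.0911).

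With a difference over 1 also required, the count of members called became 1 (HSPA6) for the rises at 4 h and 8 h of H2O2, the excess of H2O2 over NCS at 4 h and 8 h, the falls from 8 h to 24 h of H2O2 and the interaction in the lower direction, and 0 for every other count above 0. Over members called higher at 8 h of NCS, 1 became 2 with aligned medians, 4 after quantile normalization and 2 with a mean of at least 5, and the 1 lower became 3 with aligned medians. For members higher at 24 h of NCS, 2 became 0 with only the groups compared. For H2O2 against NCS at 24 h, the 1 higher became 2 with aligned medians, 0 after quantile normalization and 2 with a mean of at least 5, and the 4 lower became 0 after quantile normalization. The 1 rise from 4 h to 8 h of NCS became 0 with only the groups compared, 1 rise from 8 h to 24 h of NCS appeared with aligned medians, and the 2 interactions in the lower direction became 6 with aligned medians and 4 with a mean of at least 5.

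With the replicate block, 2 members in place of 1 were higher at 8 h of NCS, HSPA1A being the second (adjusted p = 0.0259), and no count of calls otherwise moved by over 1.5 times. No call of a member was lost with the block. The pairing by number is not given by the labels.

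When 1 library was left out, the counts lay between 1 and 2 for members higher at 24 h of H2O2, 1 and 2 higher and 0 lower at 8 h of NCS, 0 and 2 higher at 24 h of NCS, 0 and 1 higher and 2 and 4 lower for H2O2 against NCS at 24 h, 0 and 1 for rises from 8 h to 24 h of H2O2 and 0 and 1 for rises from 4 h to 8 h of NCS. Leaving out a library also turned the sign of 7 differences that were not called. Their ranges were -0.029 to 0.013 for BAG3 at 24 h of H2O2, -0.0084 to 0.076 for HSPB1 at 8 h of NCS, -0.041 to 0.038 for HSPA1A at 24 h of NCS, -0.059 to 0.024 for HSPB1 at 4 h and -0.058 to 0.00081 for HSPA1B at 24 h in H2O2 against NCS, -0.075 to 0.076 for HSPA1B from 4 h to 8 h of H2O2, and -0.024 to 0.017 for DNAJB1 in the interaction.

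Quantile normalization turned the sign of BAG3 at 24 h of H2O2 (0.044), HSPA1A at 24 h of NCS (0.047), HSP90AA1 in H2O2 against NCS at 24 h (0.028) and in the interaction (0.124), HSPA8 from 8 h to 24 h of H2O2 (0.0059) and BAG3 from 4 h to 8 h of NCS (0.020). Aligned medians turned that of BAG3 at 8 h of NCS (-0.00047), HSPA1A at 24 h of NCS (0.0035), HSPA1B from 4 h to 8 h of H2O2 (0.0099), DNAJB1 from 8 h to 24 h of NCS (0.019) and DNAJB1 in the interaction (-0.024). For the pathway lists, the other scalings and the fit without H2O2 8 h replicate 2 were chosen after seeing the data. With them the 64 genes gave 18 higher and 28 lower at 24 h of H2O2 after quantile normalization, and 14 higher and 10 lower at 8 h of H2O2 without that library.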
